A study of Mus musculus with 12 samples.

Results

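The testes of 3 control mice were separated into a fraction labelled Sertoli cells and a fraction labelled germ cells, and RNA of each was measured on 1 Agilent 1-colour array per fraction and mouse. These 6 arrays, of 12 in the series, were chosen by their source names and paired by the mouse number in their titles. A probe was a member when the scanner software had flagged it as clearly over background on each of the 3 arrays of the Sertoli-labelled or of the germ fraction (called well above background here), which kept 29721 of 39429 probes, or 24403 genes, each read from its brightest member probe. The control mice were male C57BL/6J animals, number 99 aged 5 months and numbers 73 and 74 aged 8 months. Their source name calls all 3 wildtype, while the titles call 73 and 74 het and 99 WT, so whether 73 and 74 carried 1 mutant Trp73 allele cannot be told. The remaining 6 arrays came from the same fractions of mice 120, 86 and 72, labelled TAp73 knock-out, of the same strain and aged 4, 8 and 8 months. The gene Trp73 makes several proteins, and TAp73 names those that begin with a transactivation domain.

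Sertoli cells are the somatic cells that line the seminiferous tubule and hold the germ cells from stem cell to spermatid. They secrete fluid, hormones and matrix, form the tight junctions of the blood-testis barrier, and supply lactate and retinoids to the germ cells. Germ cells pass through mitosis as spermatogonia, meiosis as spermatocytes and remodelling as spermatids, and replace many housekeeping enzymes with isozymes of their own. Peritubular myoid cells, fibroblasts, Leydig cells, macrophages and vessels surround the tubules and can be carried along when cells are isolated.

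A level here is the log2 processed signal of a probe minus the 75th percentile of its array, so differences between fractions are log2 differences, given as Sertoli-labelled minus germ. Between 64.5% and 77.2% of the probes were well above background on each array. The 75th percentile of the signal was 3930, 2860 and 1350 on the Sertoli-labelled arrays of mice 99, 73 and 74, and 4690, 5230 and 3470 on their germ arrays. The array with the lowest signal, the Sertoli-labelled array of mouse 74, had 109 genes more than 8-fold above both other Sertoli-labelled arrays. The germ array of mouse 99 had 114 genes more than 8-fold below both other germ arrays, and the Sertoli-labelled array of mouse 73 had 35 such genes in its group. Each control mouse had its own slide, and the slide of mouse 74 was scanned on another day than the others, so mouse, slide and scan cannot be told apart. The 3 mice are separate animals with 1 array per fraction, so the number of mice limits the precision. In these bulk fractions, fewer cells of a type and less RNA per cell cannot be told apart.

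Over all genes, 18008 of 24403 (73.8%) differed between the fractions at a limma adjusted p under 0.05. Called higher in the Sertoli-labelled fraction were 9310 genes (38.2% of all genes), and called lower 8698 (35.6% of all genes). Of these, 8555 and 8284 differed by at least 2-fold. The sign was the same in all 3 mice for 99.6% of the called genes, and the median SE was 0.31. The call was made on these same mice and favours genes of 1 sign, so this share is no separate support. The large differences were unequal in number: 995 genes were higher by over 32-fold and 2920 lower, 13 were higher by over 1024-fold and 497 lower. Not well above background on any Sertoli-labelled array were 3081 genes, against 483 on the germ arrays. These genes were members through the other fraction alone, so their calls add no separate support, here and in each list below. The counts by fold rest on the fitted differences and include such genes, whose fold is uncertain. Scaling moved the balance, since the median over all genes shifted by 0.67 on the median scale, by 0.59 after normexp correction and by -0.41 with the percentile over probes detected on all 6 arrays. Of the called genes, 51.7% were higher here, 62.6% on the median scale and 64.4% after normexp. Without the Sertoli-labelled and germ arrays of mouse 74, the array pair with the lowest signal, 7654 genes were higher and 7970 lower.

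The Sertoli label was then set against 26 genes that mark Sertoli cells, of which 23 were measured. Of these, 7 were higher in the Sertoli-labelled fraction, 11 were lower and 5 passed in neither direction, with a median difference of -0.81. Over all genes 38.2% were higher and 35.6% lower, the shares to read beside this and each later list count. Kitl, which encodes the ligand that Sertoli cells present to spermatogonia, read -1.76, -4.25 and 0.18 on the Sertoli-labelled arrays and -7.60, -6.95 and -4.42 on the germ arrays of mice 99, 73 and 74. That is a difference of 4.38 ± 0.59 (SE, n = 3 mice; limma adjusted p = 0.000753), and it was positive in each mouse although Kitl was well above background on 2 of the 3 germ arrays, counts that are given below wherever a group has fewer than 3. Inhbb, an inhibin and activin subunit, was higher by 3.39 ± 0.36, and the transcription factor Gata4 by 3.1 ± 0.39. The cathepsin gene Ctsl was higher by 1.58 ± 0.34. Sox9, the factor that directs Sertoli cell fate, read -1.15, -2.23 and -1.55 against -3.74, -2.82 and -2.68, higher by 1.43 ± 0.43 (limma adjusted p = 0.024). The call of Sox9 was lost without mouse 99, where the difference was 0.86, and with the percentile over probes detected on all 6 arrays, at 1.02. Gdnf, the stem cell niche factor, was higher by 0.94 ± 0.31, a call lost when any 1 mouse was left out, at 0.70 to 1.18.

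Several of the most Sertoli-restricted genes lay the other way. Cst9, a cystatin relative made by Sertoli cells, read -2.70, -2.96 and -3.69 on the Sertoli-labelled arrays and 5.14, 4.77 and 4.83 on the germ arrays, a difference of -8.03 ± 0.30 (limma adjusted p = 1.08e-05). Fshr, the receptor through which follicle-stimulating hormone acts on Sertoli cells, stood well above background on no Sertoli-labelled array, and its signal was at least 8.99-fold higher in the germ fraction. Fshr was a member through its germ arrays alone, so its call adds no separate support. The call of Fshr was lost after normexp background correction, at -0.60 (limma adjusted p = 0.62). The androgen-regulated homeobox gene Rhox5 was lower by 5.28 on the log2 scale, Cst12 read -4.47, and the inhibin alpha gene Inha fell by 2.65. Dhh, the hedgehog ligand of Sertoli cells, fell by 2.16, and Shbg, the androgen carrier, by 2.36, a call lost after normexp correction, at -1.26. The barrier claudin Cldn11 differed by -1.98 ± 0.67, and this call was lost without mouse 73, at -1.31, and after normexp correction, at -1.75, and the difference was 0.13 in mouse 99. The clusterin gene Clu differed by -0.83 ± 0.31 and lost its call when any 1 mouse was left out, at -0.98 to -0.56. Wt1 (0.63 ± 0.29) and Trf (0.08 ± 0.32) did not pass. The summed signal of the 26 markers, relative to the 75th percentile, was 150 to 155 on the Sertoli-labelled arrays and 159 to 209 on the germ arrays. Ctsl (levels of 5.90, 6.15 and 6.33) and Clu (5.36, 5.02 and 4.47) made up most of the sum on the Sertoli-labelled arrays. The sum therefore does not speak for the list as a whole. Of the 26 markers, 4 were not well above background on any Sertoli-labelled array and 1 on any germ array. The marker genes go against the label in part, so the fraction is called Sertoli-labelled throughout.

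**Figure D1:**
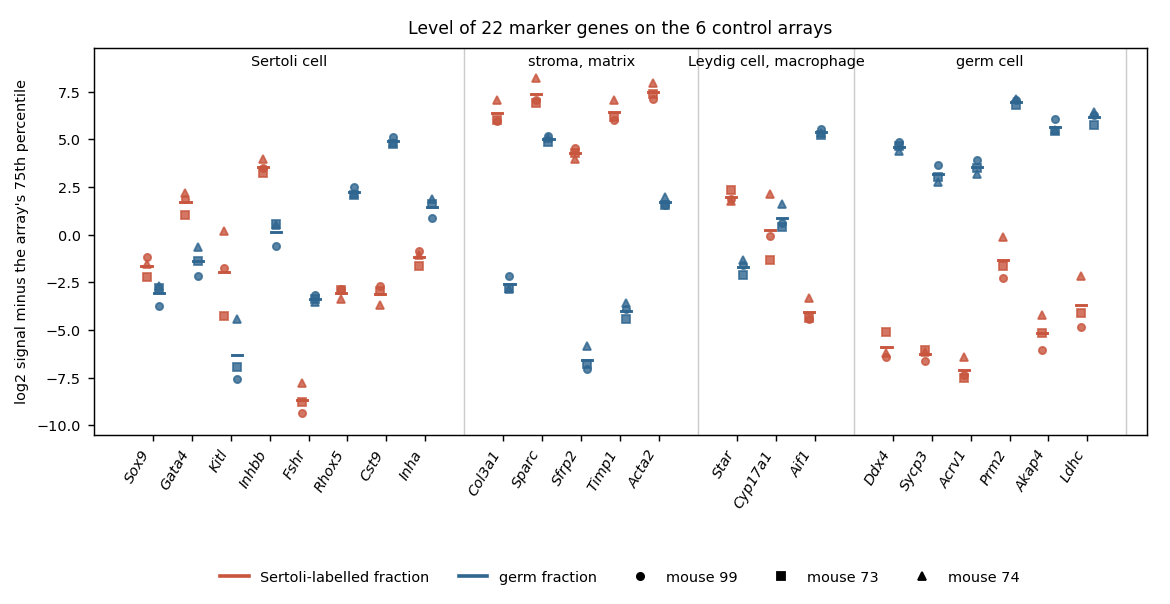
Level (log2 signal minus the 75th percentile of the array, vertical axis) of 22 marker genes on the 6 control arrays; each point is 1 array (Fshr and Acrv1 not well above background on the Sertoli-labelled arrays), its shape the mouse, its colour the fraction, and the short lines are means of 3 arrays. Sox9, Gata4, Kitl and Inhbb are higher in the Sertoli-labelled fraction, Fshr, Rhox5, Cst9 and Inha are higher in the germ fraction, and the stromal, matrix and germ cell genes shown separate without overlap.

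Markers of fibroblasts and of peritubular myoid cells were higher in the Sertoli-labelled fraction. Of 13 stromal markers, 13 were called higher, with a median difference of 6.41, beside 38.2% of all genes tested called higher and a median over all genes of 0.20. Col3a1, the fibrillar collagen of soft connective tissue, read 5.98, 6.04 and 7.05 against -2.15, -2.79 and -2.83, a difference of 8.95 ± 0.39 (limma adjusted p = 1.11e-05). The lowest Sertoli-labelled array lay far above the highest germ array. The type I collagen genes Col1a1 and Col1a2 were higher by 8.35 ± 0.37 and 8.00 ± 0.44, the receptor Pdgfra by 6.67 ± 0.27 and the transcription factor Tcf21 by 6.75 ± 0.33. Dpt, a matrix protein gene, stood well above background on no germ array, with a rise of at least 38.2-fold. Sparc, a secreted matrix regulator, showed a smaller rise of 2.36 ± 0.36. The summed signal of the stromal list was 481 to 995 on the Sertoli-labelled arrays and 32.4 to 40.6 on the germ arrays.

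Among 10 markers of peritubular myoid cells, which are the contractile cells around the tubule, 9 were called higher and none lower, with a median of 5.48. The smooth muscle actin gene Acta2 read 7.14, 7.37 and 7.97 against 1.57, 1.53 and 1.99, higher by 5.79 ± 0.27, and the desmin gene Des was higher by 6.92 ± 0.59. Calponin (Cnn1) rose by 6.45 ± 0.28, transgelin (Tagln) by 5.77 ± 0.29 and the smooth muscle myosin gene Myh11 by 4.60 ± 0.49. The summed signal of this list was 427 to 625 against 21.4 to 25.1. Each gene of both lists except Dpt was well above background on at least 1 germ array. The part of such cells in the other differences given here was not tested.

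Markers of Leydig cells, the androgen-producing cells of the interstitium, were split: 2 of 10 were higher and 4 lower, beside 38.2% and 35.6% of all genes. The list median of -0.67 came to 0.00 when arrays were scaled to their median. Star, which moves cholesterol into mitochondria, was higher by 3.69 ± 0.35. The steroid enzyme gene Hsd3b6 fell by 3.87 and was well above background on 1 Sertoli-labelled array, a call lost after normexp correction, at -0.76. Ptgds, a prostaglandin synthase, fell by 3.47. Cyp11a1 (0.19 ± 0.35) and Cyp17a1 (-0.65 ± 0.46) did not pass. Over the Leydig list the summed signal, 34.6 to 39.3 against 28.7 to 41.9, overlapped between the fractions. Fdx1, which did not pass (0.72 ± 0.30), made up a large part of the sum on the Sertoli-labelled arrays. The sum therefore does not speak for the list as a whole.

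Of 16 measured macrophage and leukocyte markers, 3 were higher and 9 lower, beside 38.2% and 35.6% of all genes. The list median of -1.74 became 0.25 after normexp background correction. Csf1r, the receptor for the growth factor of macrophages, was higher by 3.64 ± 0.29 on its brightest probe, and the lysozyme gene Lyz2 by 2.16 ± 0.48. The 3 probes of Csf1r ranged from -0.70 to 3.64, and 2 were called higher. The mannose receptor gene Mrc1 fell by 4.48, the antigen presentation gene Cd74 by 3.33 and the complement gene C1qa by 2.37. Lyz2 was well above background on 1 germ array and C1qa on 1 Sertoli-labelled array. Ptprc, which encodes the pan-leukocyte protein CD45, stood well above background on no Sertoli-labelled array, and its signal was at least 4.98-fold higher in the germ fraction. C1qa and Ptprc changed sign after normexp background correction, at 0.25 each, and the calls of Cd74 (-1.26) and Lyz2 (2.26) were lost there. Aif1 showed the largest fall of the list, reading -4.43, -4.38 and -3.35 against 5.52, 5.22 and 5.35, a difference of -9.42 ± 0.34. The summed signal of this list was 9.76 to 21.1 in the Sertoli-labelled fraction and 45.8 to 55.8 in the germ fraction. Aif1 alone made up most of the sum on the germ arrays, so the sum does not speak for the list as a whole.

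Of 11 endothelial markers 5 were higher and 2 lower, beside 38.2% and 35.6% of all genes. The list median of 0.87 was -0.03 in mouse 73. The vascular cadherin gene Cdh5 was higher by 5.56 ± 1.28, reading 1.92, -1.52 and 2.13 against -7.79, -3.86 and -2.50 with 2 germ arrays well above background, and the endoglin gene Eng by 4.04 ± 0.35. Plvap fell by 3.04 on its brightest probe, while another of its probes was called higher, so its direction is uncertain. The call of Plvap was lost after normexp correction, at -1.71, and that of Cdh5 with an intensity trend and robust prior. Summed over the endothelial list the signal was 7.70 to 21.9 against 5.32 to 6.15. Of 3 measured erythroid markers 2 were lower: the haem synthesis gene Alas2 fell by 5.99, with 2 Sertoli-labelled arrays well above background, and the globin gene Hba-a1 by 4.61, with a summed signal of 0.0409 to 0.118 against 1.42 to 1.62. The call of Hba-a1 was lost after normexp correction, at -2.40. Of 9 epididymis markers 3 were measured, 1 of them called lower, with a median of -0.45 that was 0.22 on the median scale and 0.16 after quantile normalisation.

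The 15 largest rises among genes detected on all 6 arrays reached from 8.9 to 12.86. Cxcl14, a chemokine, had the largest rise, reading 6.75, 6.97 and 7.49 on the Sertoli-labelled arrays and -6.10, -5.65 and -5.62 on the germ arrays, a difference of 12.86 ± 0.28, or 7430-fold (limma adjusted p = 1.08e-05). The gap between the groups was many times the spread within either. The calcium-binding protein gene S100a4 followed at 10.96 ± 0.33 and the secreted Wnt modulator Sfrp2 at 10.83 ± 0.41. Timp1, an inhibitor of matrix metalloproteinases, read 6.02, 6.19 and 7.04 against -3.89, -4.45 and -3.61. Its difference was 10.40 ± 0.30. The matricellular gene Ccn5 was higher by 10.31 ± 0.29. The matrix genes Ccdc80 (10.17 ± 0.29), Fbln2 (9.87 ± 0.27) and Efemp1 (8.93 ± 0.41) were among them. The growth factor gene Vegfd rose by 9.65 ± 0.33, the stress-response regulator Nupr1 by 9.42 ± 0.27 and the tubulin gene Tubb2b by 9.05 ± 0.28. Bmper, whose product binds bone morphogenetic proteins, rose by 9.01 ± 0.30 and the podoplanin gene Pdpn by 8.9 ± 0.30.

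For genes well above background on no germ array the fold is a lower bound: the mean of the Sertoli-labelled arrays against the lowest signal that passed as detected, or the dim probe's own where that was higher. Inhba, which encodes the subunit of activin A, was at least 1680-fold higher in the Sertoli-labelled fraction, with levels of 3.57, 3.65 and 3.94 there. Ankrd1, a target of mechanical and YAP signalling, was at least 699-fold higher. Thbs2, a thrombospondin of the matrix, was at least 618-fold higher, the orphan receptor gene Gpr176 at least 581-fold and the mitochondrial folate enzyme gene Aldh1l2 at least 498-fold.

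All 20 basement membrane genes were called higher, from 1.59 (Col18a1) to 8.05 (Col4a1), with a median of 5.35. Col4a1, a chain of the type IV collagen network under the tubule epithelium, read 6.09, 5.65 and 5.94 against -2.40, -2.10 and -1.98. The fractions did not overlap, and its partner chain Col4a2 was higher by 7.41 ± 0.33. The laminin chain gene Lamc1 rose by 6.68 ± 0.30. Hspg2, which encodes perlecan, rose by 6.37 ± 0.98, reading 5.17, 2.67 and 4.94 against -4.31, -1.25 and -0.80. Of 21 integrin and focal adhesion genes 19 were higher and none lower, with a median of 3.92. The fibronectin receptor chain Itga5 rose by 7.65 ± 0.33, the common beta chain Itgb1 by 5.88 ± 0.27 and the focal adhesion kinase gene Ptk2 by 1.32 ± 0.27. Cav1, a caveola coat gene, was at least 43.6-fold higher, while the paxillin gene Pxn stood at -0.39 ± 0.44 and did not pass. The stromal and myoid lists, whose summed signals are given above, were higher as well, and their part in these differences was not tested.

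Of 19 matrix and lysosomal peptidase genes 18 were higher and none lower, with a median of 5.37, and of 16 inhibitor genes 13 were higher and 2 lower, with a median of 5.74. Mmp2, a gelatinase, read 1.68, 1.33 and 2.16 against -7.62, -8.36 and -5.68, higher by 8.94 ± 0.42 and well above background on 1 germ array. Adamts2, which trims procollagen, was higher by 8.9 ± 0.31, the cathepsin genes Ctsk by 7.29 ± 0.31 and Ctsb by 4.71 ± 0.28. Ctss read 0.02 ± 0.31 and did not pass. Among inhibitors, Serpinf1 rose by 8.82 ± 0.27 and the collagen chaperone gene Serpinh1 by 8.57 ± 0.44. The exceptions were Spink2, an inhibitor of the acrosome, which fell by 7.32, and Serpina5, the protein C inhibitor, which fell by 3.28.

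Cell junction genes, which bear on the germ cell adhesion named in the title of the series, were read by class. Over all genes, 38.2% were called higher and 35.6% lower. Of 15 tight junction genes 2 were higher and 9 lower, with a median of -1.98, which was 0.07 over the genes detected on all 6 arrays. Cldn3, a claudin of the blood-testis barrier, fell by 5.86 and was well above background on 2 Sertoli-labelled arrays. Ocln, the occludin gene, was at least 4.47-fold higher in the germ fraction, but changed sign after normexp background correction, at 0.24. The scaffold gene Cgn fell by 3.05, whereas Tjp1 (0.45 ± 0.28) did not pass. The immunoglobulin-like receptor genes Cxadr and F11r were higher by 3.83 ± 0.31 and 3.71 ± 0.39.

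Of 21 adherens junction, ectoplasmic specialization and nectin genes 12 were higher and 7 lower, with a median of 2.24. The share of lower genes was near the 35.6% of all genes. The nectins, which join Sertoli cells to spermatids, went apart: Nectin1 rose by 5.30 ± 0.32 and Nectin2, the Sertoli cell partner, by 1.58 ± 0.27, while Nectin3, the spermatid partner, fell by 3.57. Nectin3 read -1.09, -1.62 and -1.49 against 2.13, 2.22 and 2.17, and Nectin2 read 3.06, 2.77 and 3.28 against 1.46, 1.39 and 1.51. Neither gene overlapped between the fractions. Cadm1, an adhesion molecule of germ cells, fell by 5.83. Espn, the actin bundler of the ectoplasmic specialization, fell by 4.12, and the alpha-actinin gene Actn1 rose by 6.86 ± 0.35. The cadherin gene Cdh3 rose by 6.33 ± 1.21, reading 1.06, -1.85 and 0.44 against -9.33, -5.63 and -4.38 with 2 germ arrays well above background, and Cdh2, the cadherin that Sertoli and germ cells share, stood at 0.45 ± 0.27 and did not pass.

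**Figure D2:**
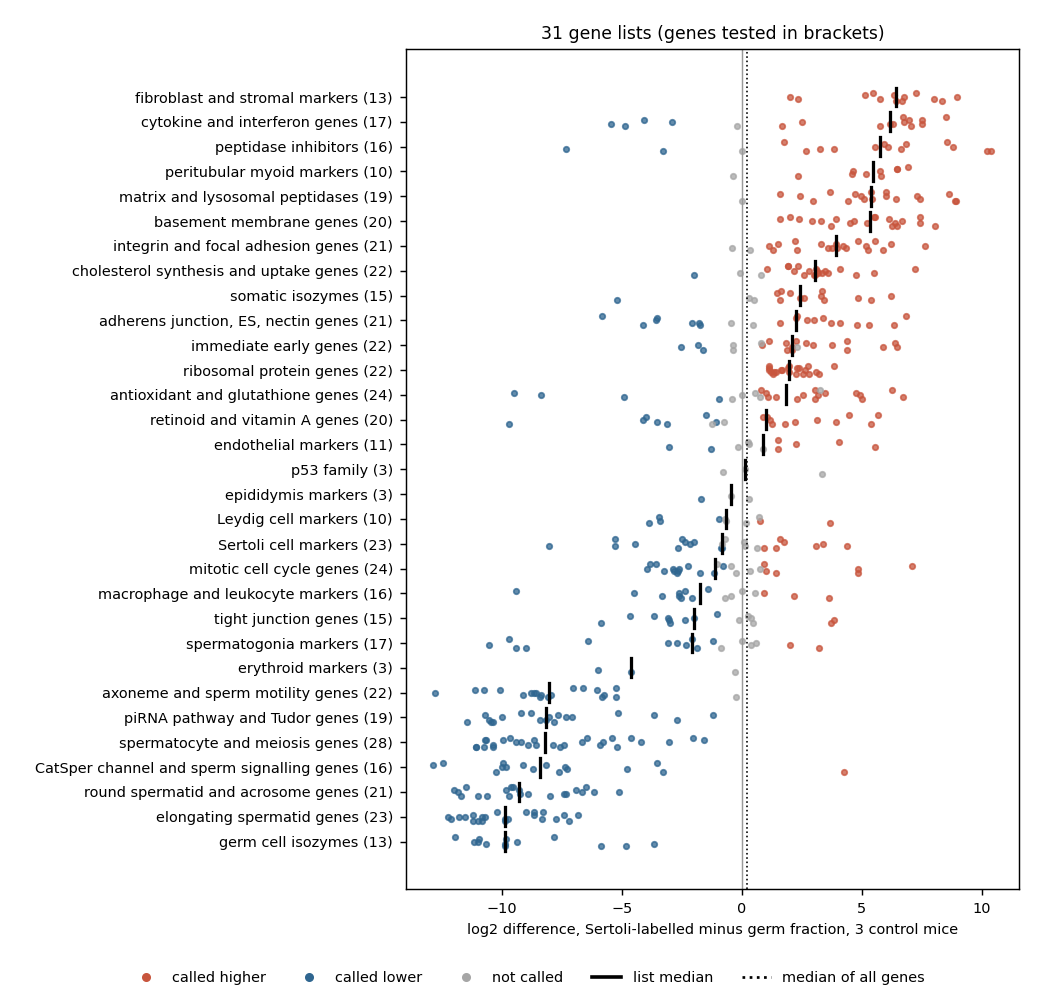
Log2 difference between the Sertoli-labelled and germ fractions (horizontal axis, limma fit on 3 control mice) for the measured genes of 31 lists, sorted by list median; each point is 1 gene, coloured by its call at an adjusted p under 0.05, black bars are list medians, ES is the ectoplasmic specialization, and the dotted line is the median of all genes at 0.20. Stromal markers have the highest median, 6.41, and germ cell isozymes and elongating spermatid genes the lowest, -9.88 each.

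Germ cell genes were lower in the Sertoli-labelled fraction, with list medians that ran from -2.08 for spermatogonia to -9.88 for elongating spermatids. Of 17 measured spermatogonia markers 2 were higher, 11 lower and 4 passed in neither direction. Well above background on no Sertoli-labelled array were 3 of the 17, and on no germ array 1. Ddx4, the germ cell RNA helicase, read -6.42, -5.11 and -6.22 against 4.84, 4.64 and 4.38, a difference of -10.54 ± 0.37, and was well above background on 2 Sertoli-labelled arrays. The RNA-binding protein gene Dazl was not well above background in the Sertoli-labelled fraction and was at least 257-fold higher in the germ fraction. Stra8, induced by retinoic acid at meiotic entry, was at least 245-fold higher. Zbtb16, a marker of undifferentiated spermatogonia, fell by 1.88, a call lost after normexp correction, at -0.58. The exceptions were the GDNF receptor gene Ret, at least 4.70-fold higher in the Sertoli-labelled fraction, and the transcription factor Etv5, higher by 2.03 ± 0.28. The call of Ret was lost after normexp correction, at 2.43. Summed over the list the signal was 8.73 to 11.6 against 45.9 to 59.2. Ddx4 and the marker Dmrtb1 made up most of the sum on the germ arrays, and Etv5 most of it on the Sertoli-labelled arrays. This sum therefore does not speak for the list as a whole.

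All 28 spermatocyte and meiosis genes were called lower, beside 35.6% of all genes, with a median of -8.21 and a summed signal of 1.73 to 2.37 against 243 to 276. Well above background on no Sertoli-labelled array were 8 of the 28, members through their germ arrays alone. Sycp3, an axial element of the synaptonemal complex, read -6.64, -6.04 and -6.14 against 3.67, 3.05 and 2.75, a difference of -9.43 ± 0.37, and was well above background on 2 Sertoli-labelled arrays. The transverse filament gene Sycp1 was at least 455-fold higher in the germ fraction, Spo11, which makes the meiotic breaks, at least 203-fold, and the meiotic cyclin gene Ccna1 at least 692-fold. Smaller differences were seen for Dmc1 (-4.22 ± 0.33), Prdm9 (-2.04 ± 0.29) and Mlh3 (-1.59 ± 0.27), which serve in meiotic recombination, Dmc1 with 2 Sertoli-labelled arrays well above background. These 3 calls were lost after normexp correction, at -2.13, -0.61 and -1.05, and that of Mlh3 also on the median scale, at -0.92. Of 19 piRNA pathway and Tudor genes 19 were lower, with a median of -8.17, and 7 were members through their germ arrays alone. Mael differed by -10.71 and Gtsf1 by -11.47, and Tdrd6 was at least 679-fold and Piwil1 at least 305-fold higher in the germ fraction.

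The 21 measured round spermatid and acrosome genes were all called lower, with a median of -9.28 and a summed signal of 1.34 to 1.82 against 314 to 375. Members through their germ arrays alone were 9 of the 21. Crem, the transcription factor that switches on spermatid genes, showed the smallest difference of this list, reading -0.77, -0.68 and -1.13 against 4.36, 4.27 and 4.09. The acrosomal protein gene Acrv1 was at least 1080-fold higher in the germ fraction, Spaca3 at least 1480-fold, Spata16 at least 964-fold and the sperm-egg fusion gene Izumo1 at least 201-fold. The acrosin gene Acr fell by 8.00. The 23 elongating spermatid genes were all lower, with a median of -9.88 and a summed signal of 1.98 to 5.23 against 939 to 1130. Members through their germ arrays alone were 4 of the 23. Prm2, the protamine that packs sperm DNA, read -2.29, -1.65 and -0.12 against 7.04, 6.78 and 7.13, a difference of -8.34 ± 0.44. The transition protein genes Tnp1 and Tnp2 fell by 8.64 and 9.0. Akap4, the main fibrous sheath protein of the sperm tail, fell by 10.82, Smcp by 10.20, and the tail fibre gene Odf1 was at least 1030-fold higher in the germ fraction. In this list the Sertoli-labelled array of mouse 74 gave the highest summed signal of its group.

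Genes of the sperm tail followed. Of 22 axoneme and motility genes 21 were lower and none higher, with a median of -8.02, and of 16 CatSper channel and sperm signalling genes 15 were lower and 1 higher, with a median of -8.43. Members through their germ arrays alone were 7 of the 22 and 5 of the 16. Spag6l, of the central pair apparatus, was at least 1620-fold higher in the germ fraction, the tektin gene Tekt1 fell by 10.76 and the dynein heavy chain gene Dnah1 was at least 35.6-fold higher there, a call lost after normexp correction, at -2.18. The calcium channel gene Catsper1 was at least 780-fold higher and Plcz1, the phospholipase that activates the egg, at least 1290-fold. Hvcn1, a proton channel of sperm and of white blood cells, was the exception and rose by 4.26 ± 0.30.

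The 15 largest falls among genes detected on all 6 arrays were led by Clec2m, a C-type lectin gene, which read -6.68, -6.37 and -3.98 against 5.94, 5.69 and 5.86, a difference of -11.50 ± 0.56. The Sertoli-labelled array of mouse 74 stood above the other 2 for this gene. Fbp1, of gluconeogenesis, differed by -11.48 and the actin-related gene Actrt2 by -11.31. The apoptosis regulator gene Bcl2l14 differed by -11.37 on its brightest probe, with another probe at -5.44. Spata4 differed by -11.23, the spermatid manchette gene Rimbp3 by -11.20, Tex33 by -11.12 and the flippase gene Atp8b3 by -11.09. The germ cell chaperone gene Clgn differed by -11.04, Cypt12 by -10.93 and the fatty acid binding protein gene Fabp9 by -10.90. Plaat5, Gtsf1, Cox8c and Gapdhs completed the 15. Cypt genes form a family of near copies, so the value of Cypt12 is uncertain. By bounds, the largest differences were in the nucleotidase gene Nt5c1b (at least 3080-fold higher in the germ fraction), Cabs1 (3030), the kinesin gene Kif2b (3010), the carnitine transporter gene Slc22a16 (2980) and the germ cell transcription factor gene Gtf2a1l (2720).

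Isozyme pairs put both directions side by side. The 13 measured germ cell isozymes were all lower, with a median of -9.88, and of 15 somatic isozymes 12 were higher and 1 lower, with a median of 2.42. Members through their germ arrays alone were 2 of the 13 germ cell isozymes. Pgk2, the phosphoglycerate kinase of spermatogenic cells, read -6.16, -5.93 and -4.44 against 5.17, 5.19 and 5.05, and its somatic partner Pgk1 read 5.77, 5.87 and 5.92 against 0.70, 0.33 and 0.38. The differences were -10.65 ± 0.43 and 5.39 ± 0.28. The pyruvate dehydrogenase pair Pdha2 and Pdha1 differed by -9.84 ± 0.46 and 6.22 ± 0.41, with Pdha2 well above background on 2 Sertoli-labelled arrays, and the sperm glyceraldehyde phosphate dehydrogenase gene Gapdhs by -11.01 ± 0.51 beside 2.61 ± 0.30 for Gapdh. Cytochrome oxidase subunits showed it as well, with Cox8c at -11.15 ± 0.52 and Cox8a at 3.29 ± 0.28. Testis cytochrome c (Cyct) was at least 1070-fold higher in the germ fraction, while Cycs was higher by 1.46 ± 0.33 in the Sertoli-labelled fraction.

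Lactate dehydrogenase and glycerol kinase departed from the pattern of their partners. Ldhc, the spermatogenic form, read -4.87, -4.09 and -2.18 against 6.30, 5.77 and 6.45, a difference of -9.89 ± 0.50. Ldha read 6.11, 6.28 and 7.09 against 5.97, 5.79 and 6.16, a difference of 0.52 ± 0.30 that did not pass and that was -0.54 after quantile normalisation. Gk2 fell by 11.96 and was well above background on 1 Sertoli-labelled array, and its partner Gk fell too, by 5.21. The glucose transporter genes Slc2a3 and Slc2a1 differed by -5.87 ± 0.32 and 3.35 ± 0.27. The heat shock pair Hspa2, needed in meiosis, and Hspa8, the constitutive form, differed by -3.67 ± 0.33 and 1.59 ± 0.34, the latter call being lost without mouse 74, at 1.26, and after normexp correction, at 1.45.

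**Figure D3:**
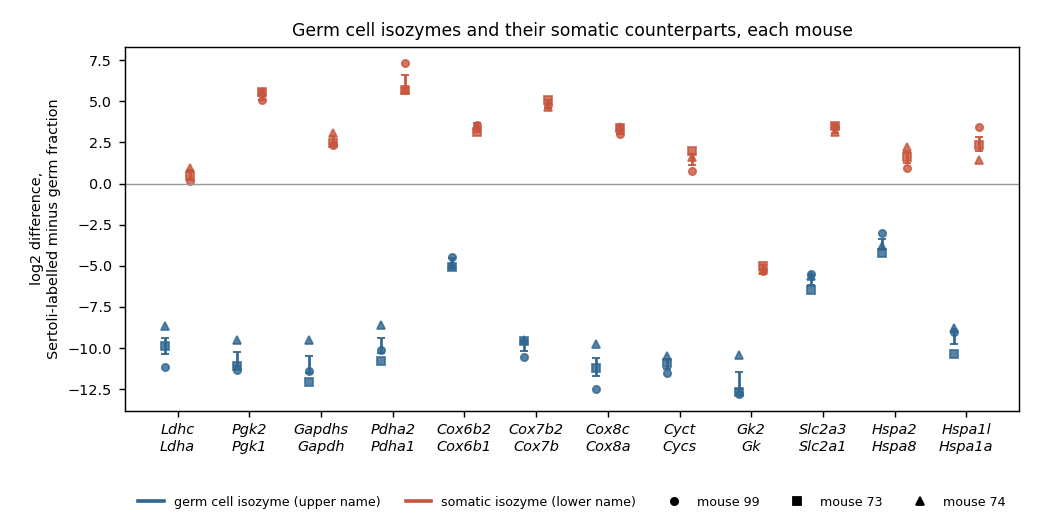
Log2 difference between the Sertoli-labelled and germ fractions (vertical axis) for 12 pairs of a germ cell isozyme (blue, upper name) and a somatic counterpart (red, lower name); points are the 3 mice and bars show the SE of the limma fit. Each germ cell isozyme lies below 0 in each mouse, and its somatic counterpart lies above 0 except Gk, at -5.21.

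Cytokine and interferon genes were mostly higher in the Sertoli-labelled fraction, with 12 of 17 higher and 4 lower, beside 38.2% and 35.6% of all genes. The list median was 6.16. Csf1, the macrophage growth factor, read 5.02, 5.06 and 4.67 against -3.32, -3.84 and -3.59, higher by 8.50 ± 0.29. Il6 stood well above background on no germ array and showed a rise of at least 93.7-fold, and the chemokine gene Ccl7 at least 127-fold. Cxcl12 rose by 6.77 ± 0.28, Ccl2 by 5.78 ± 0.28 and the interferon-induced genes Isg15 and Ifit1 by 7.06 ± 0.42 and 6.98 ± 0.29. The 4 lower genes were Ccl3 and Ccl4, at least 7.52-fold and 9.0-fold higher in the germ fraction, Il1b, at least 3.78-fold, and Cxcl1, which fell by 2.90. Il1b changed sign after normexp correction, at 0.21, and Ccl3, Ccl4 and Cxcl1 lost their calls there, at -0.49, -0.79 and -1.25.

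Of 22 immediate early genes, which respond within minutes to a stimulus, 15 were higher and 3 lower, with a median of 2.09. Fosl2 rose by 6.48 ± 0.27, with another probe at 2.30, Myc by 6.37 ± 0.59 and Egr2 by 5.89 ± 0.30. Myc read 0.27, 0.09 and -0.16 against -7.94, -5.51 and -5.47, with 2 germ arrays well above background. Egr1 rose by 2.08 ± 0.28, while Fos stood at -0.37 ± 0.28 and did not pass. Egr3 was at least 3.89-fold higher in the germ fraction and changed sign after normexp correction, at 0.43.

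Sterol, retinoid and redox genes were also read. Of 22 cholesterol synthesis and uptake genes 19 were higher and 1 lower, with a median of 3.04. The lanosterol demethylase gene Cyp51 rose by 5.51 ± 0.38, whereas the squalene synthase gene Fdft1 fell by 2.0. Of 20 retinoid genes 11 were higher and 7 lower, beside 38.2% and 35.6% of all genes, with a median of 0.99. The retinal reductase gene Dhrs3 was higher by 5.66 ± 0.29. Aldh1a3, which makes retinoic acid, rose by 4.47 ± 0.31. Crabp1, a retinoic acid binding protein gene, fell by 4.11 with 2 Sertoli-labelled arrays well above background, and Cyp26a1, which degrades retinoic acid, was at least 5.84-fold higher in the germ fraction. Both lost their calls after normexp correction, at -1.45 and -0.01.

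Of 24 antioxidant and glutathione genes 15 were higher and 4 lower, with a median of 1.86. Gpx3, a secreted glutathione peroxidase, rose by 6.71 ± 0.60 and the quinone reductase gene Nqo1 by 6.25 ± 0.43. The spermatid thioredoxins Txndc8 and Txndc2 fell by 9.48 and 8.36, and the testis thioredoxin reductase gene Txnrd3 by 4.89. All 22 ribosomal protein genes of the list were higher, from 1.12 to 3.85, with a median of 1.96. Rpl10 rose by 3.85 ± 0.30 and Rps3 by 3.21 ± 0.34. Rplp0 (1.12 ± 0.32) was the smallest and lost its call after quantile normalisation, at 0.22, without mouse 73, at 1.14, and without mouse 74, at 0.83. Of 24 mitotic cell cycle genes 6 were higher and 13 lower, beside 38.2% and 35.6% of all genes, with a median of -1.10. The D-type cyclin genes Ccnd2 and Ccnd1 rose by 7.10 ± 0.27 and 4.85 ± 0.32, and the cyclin-dependent kinase inhibitor gene Cdkn1a by 4.83 ± 0.30. The spindle genes Bub1 and Aurka fell by 3.96 and 3.83 and the topoisomerase gene Top2a by 2.68. Mki67, a marker of proliferating cells, stood at -0.23 ± 0.31 and did not pass.

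No member of the p53 family was called. Trp73, the gene deleted in the TAp73 form in the knockout mice, read -3.56, -4.01 and -2.13 on the Sertoli-labelled control arrays and -4.28, -3.10 and -2.68 on the germ arrays, with a difference of 0.12 ± 0.40 (limma adjusted p = 0.801). The fractions overlapped. Trp63 differed by -0.78 ± 0.33 (limma adjusted p = 0.0692). Trp53 read -0.55, -5.05 and -1.01 against -9.38, -3.79 and -3.46, a difference of 3.34 ± 1.72 (limma adjusted p = 0.123), and was well above background on 2 germ arrays. It passed without mouse 73, at 5.64, without mouse 74, at 3.79, on the median scale, at 4.01, and after normexp correction, at 3.18. The fit without mouse 74 rests on mouse 99, higher in the Sertoli-labelled fraction, and mouse 73, lower there, so its pass shows no shared direction. The values of Trp53 were lowest on the germ array of mouse 99 and on the Sertoli-labelled array of mouse 73. These are the arrays with the most genes below their group.

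Among called genes well above background on all 6 arrays, 5 were named for the widest range of the difference between mice. Prdx3, a mitochondrial peroxiredoxin, read 2.21, -1.10 and 1.86 against -6.03, -1.39 and -0.80, a difference of 3.73 ± 1.39 that was 1.47 without mouse 99 and then lost its call. Tmed2, of vesicle transport, was higher by 4.46 ± 1.30, the respiratory chain gene Ndufa4 by 4.58 ± 1.19, and the splicing factor gene Hnrnph2 by 3.17 ± 1.10, which was 1.37 and not called without mouse 99. Prdx3, Tmed2, Ndufa4 and Hnrnph2 also lost their calls after normexp correction, at 3.5, 4.20, 4.26 and 3.01, and with an intensity trend and robust prior. Hspg2, described with the basement membrane, completed the 5. On each of these genes the germ array of mouse 99 was the lowest of its group and the Sertoli-labelled array of mouse 73 the lowest of its own.

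Genes were also read by chromosome. The 644 measured X-linked genes had a median difference of 0.88, with 50.5% called higher and 36.5% lower, beside a median of 0.27 with 39.4% higher and 33.9% lower over 15614 autosomal genes. In single mice the median of the X genes was 0.86, 0.80 and 0.92 in mice 99, 73 and 74, and that of the autosomal genes 0.22, 0.21 and 0.32. The difference of the medians, 0.60, was 0.18 with no filter on dim probes and 1.32 over genes detected on all 6 arrays. Higher X genes included Timp1 and Vegfd, the collagen chain gene Col4a5 (7.41 ± 0.38), the membrane linker gene Msn (7.15 ± 0.29), the monoamine oxidase gene Maob (7.16 ± 0.33) and Srpx, at least 388-fold higher. Lower X genes included Akap4 and Tex13a, the latter at least 673-fold higher in the germ fraction.

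Of 18 measured Y-linked genes 2 were higher and 14 lower, with a median of -8.06. The higher genes were the helicase gene Ddx3y (4.06 ± 0.31) and the initiation factor gene Eif2s3y (1.49 ± 0.33), both housekeeping genes of the Y. Ddx3y read 1.68, 1.62 and 0.98 against -2.90, -2.44 and -2.57. The zinc finger gene Zfy2, active in spermatids, was not well above background in the Sertoli-labelled fraction and was at least 96.6-fold higher in the germ fraction. Many sex-linked spermatid genes are near copies of each other, so a probe can read several of them.

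**Figure D4:**
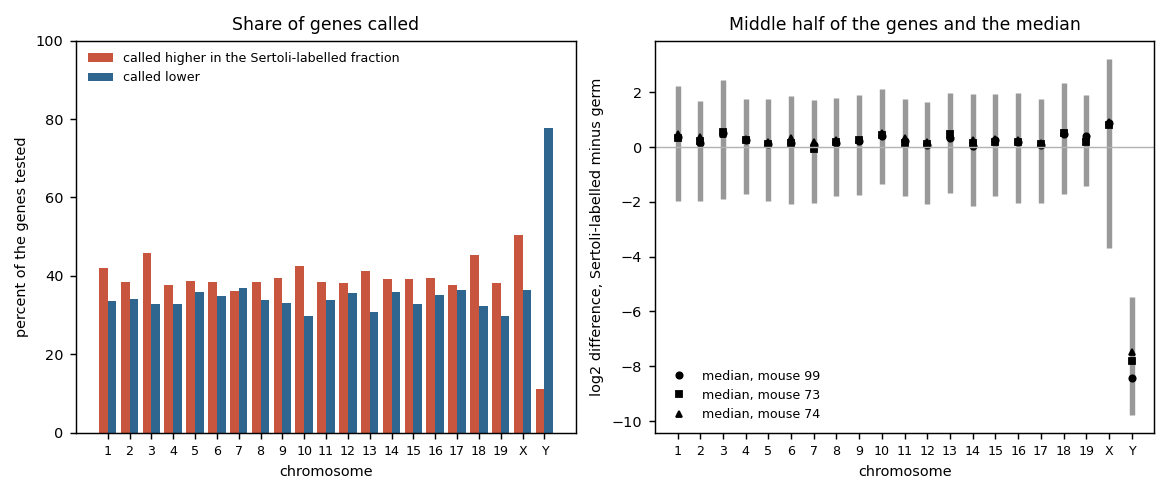
Left, percent of measured genes called higher (red) or lower (blue) in the Sertoli-labelled fraction for each chromosome (horizontal axis); right, log2 difference, with grey bars from the lower to the upper quartile of the genes and points for the median in each mouse. The X has 50.5% of genes called higher and the Y 77.8% called lower.

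Promoter sequence was read for genes at both ends of the comparison. RefSeq promoter windows of assembly GRCm38.p6, from 250 bases before to 50 after a start, were available for 12945 of the genes tested. The windows were searched on both strands for TGANTCA, the site of AP-1 (Fos and Jun family dimers), and for TGACGTCA, the cyclic AMP response element bound by Crem; no match of one lies within a match of the other. Shown are Efemp1 and Il6, higher in the Sertoli-labelled fraction, and Akap4 and Izumo1, higher in the germ fraction, because each holds a match. Capitals mark the AP-1 match in the first 3 sequences and the response element in Izumo1, and the sequences run 5′ to 3′ on the strand of the gene.
Efemp1 (chr11:28852955-28853254, + strand): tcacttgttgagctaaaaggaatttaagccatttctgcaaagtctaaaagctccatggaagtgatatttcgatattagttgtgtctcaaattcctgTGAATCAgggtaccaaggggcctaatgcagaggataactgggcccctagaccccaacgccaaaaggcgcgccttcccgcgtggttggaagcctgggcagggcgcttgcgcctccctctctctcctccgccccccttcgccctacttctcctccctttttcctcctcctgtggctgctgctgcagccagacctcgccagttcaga
Il6 (chr5:30012864-30013163, + strand): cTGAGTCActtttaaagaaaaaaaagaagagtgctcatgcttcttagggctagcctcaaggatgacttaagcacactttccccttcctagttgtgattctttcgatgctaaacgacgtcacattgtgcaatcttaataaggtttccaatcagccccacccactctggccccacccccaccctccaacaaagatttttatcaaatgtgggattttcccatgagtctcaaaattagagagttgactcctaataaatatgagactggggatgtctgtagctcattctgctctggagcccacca
Akap4 (chrX:7067960-7068259, + strand): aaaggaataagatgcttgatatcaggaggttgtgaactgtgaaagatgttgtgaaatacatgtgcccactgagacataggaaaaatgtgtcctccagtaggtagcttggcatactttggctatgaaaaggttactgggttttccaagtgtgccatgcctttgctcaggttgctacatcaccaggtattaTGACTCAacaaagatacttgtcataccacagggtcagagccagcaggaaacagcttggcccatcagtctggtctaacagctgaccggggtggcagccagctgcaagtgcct
Izumo1 (chr7:45621561-45621860, + strand): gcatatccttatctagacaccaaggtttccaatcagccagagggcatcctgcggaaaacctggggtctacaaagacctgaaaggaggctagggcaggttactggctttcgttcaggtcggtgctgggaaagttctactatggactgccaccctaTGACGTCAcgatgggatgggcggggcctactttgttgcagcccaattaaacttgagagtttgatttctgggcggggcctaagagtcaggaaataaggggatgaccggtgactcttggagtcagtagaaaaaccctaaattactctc
The AP-1 match began at -154 relative to the start in Efemp1, at -249 in Il6 and at -61 in Akap4, and the response element at -96 in Izumo1.

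Over the 12945 windows, 7.09% held TGANTCA. The share was 12.3% among 624 genes higher by over 32-fold and 10.5% among 285 genes lower by over 1024-fold, at unequal cutoffs. Among genes that differed by at least 2-fold it was 7.57% of 4664 higher and 7.68% of 4220 lower genes, close to the share over all windows. TGACGTCA was in 3.08% of all windows, and in 2.59% of the genes higher and 3.18% of those lower by at least 2-fold. Its share was 1.28% among the genes higher by over 32-fold and 1.40% among those lower by over 1024-fold. It was found in 1 of 17 round spermatid genes, Izumo1, in none of 21 elongating spermatid genes and in 3 of 17 immediate early genes. CCAATNA, the letters bound by the factor NF-Y, was in 19.1% of all windows and in 9 of 24 spermatocyte genes (37.5%), but in 2 of 17 round spermatid genes (11.8%), 1 of 21 elongating spermatid genes (4.76%) and 13.8% of the genes higher by over 32-fold. A match is a description of the letters and not of a bound site.

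The same contrast in the 3 knockout mice used no control array, although each slide carried a knockout and a control mouse. It called 80.1% of the 24402 genes that could be fitted, and 96.7% of the 18008 genes called in control mice passed there with the same sign. Across genes the differences of both genotypes correlated with r = 0.992, genes not being independent replicates. Sfrp2 differed by 10.83 in control and 10.67 in knockout mice, Col3a1 by 8.95 and 7.74, Akap4 by -10.82 and -11.74, Cst9 by -8.03 and -7.75, and Sox9 by 1.43 and 0.88. The Sertoli marker list had medians of -0.81 and -1.0. Timp1 was higher by 10.40 in control and by 6.00 in knockout mice. A test of the difference between genotypes called none of these genes. By limma with mouse as a block, the fraction by genotype term passed for 0 of 24402 genes (0%), with a smallest adjusted p of 0.125. At an unadjusted p under 0.05 were 1168 of the 24402 genes, no more than that threshold passes when nothing differs. Without the block the term passed for 2 genes. Of the genes called in both, 2 had opposite signs, Npr1 and Trem2.

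**Figure D5:**
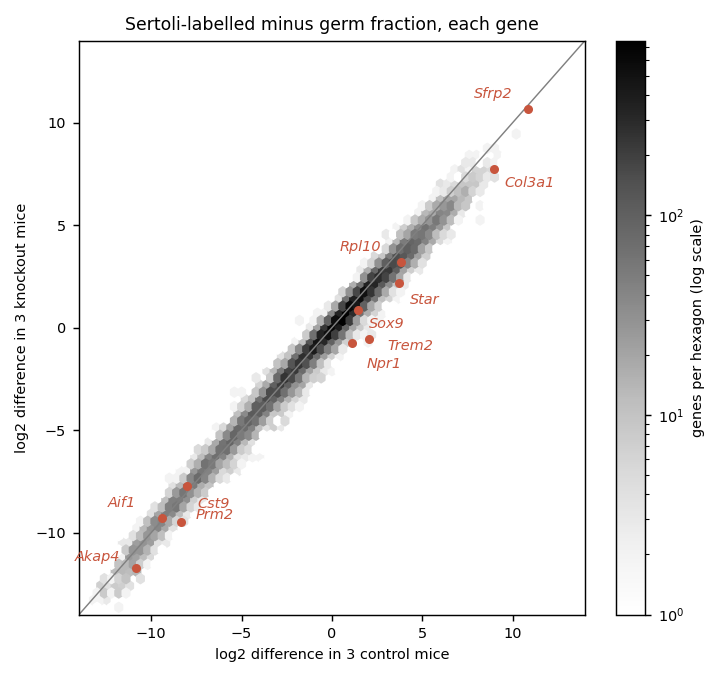
Log2 difference between the Sertoli-labelled and germ fractions in the 3 control mice (horizontal axis) and the 3 knockout mice (vertical axis); the shade of a hexagon is the number of genes on a log scale, the line marks equal differences, and 11 named genes are in red. Genes lie along the line (r = 0.992 across genes), and Npr1 and Trem2 lie on opposite sides of 0 in the genotypes.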

How the data were processed

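RNA of both testis fractions of 3 control and 3 knockout mice was hybridised to 12 Agilent 1-colour mouse arrays of 44397 spots. The processed signal is an intensity that, per the file headers, Agilent Feature Extraction 10.7.3.1 had background-subtracted and detrended within each array. A second deposited table holds the authors' own log2 values, whose between-array method is not given in the sources used here, although limma is named in the submitters' processing notes. Control spots (1377) were left out, spots of a probe averaged, log2 intensities scaled to each array's 75th percentile, and 26055 of 39429 probes named through RefSeq (GRCm38.p6), the rest keeping the file's accession.

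Fractions were compared with limma 3.58.1 in R 4.3.3, mouse as a block, Benjamini-Hochberg adjusted over 29721 probes. The pairing rests on the animal: both fractions of a number come from 1 mouse. Deviations from the group means correlated at -0.176, -0.133 and 0.483 within mice 99, 73 and 74. Where a gene has several probes (4515 genes), 291 had probes called in opposite directions. In 73 member probes an array value was missing, and the fit used the remaining arrays. The label field names biotin while the protocol describes Cy3, the dye scanned.

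Genes named were the 15 largest rises and falls among genes detected on all 6 arrays with an approved symbol, the 5 largest bounds in each direction, the 5 called genes most variable between mice among those detected on all 6 arrays, members of the lists, and the p53 family. Members and lists were chosen with earlier results of these data known. The Sertoli-labelled to germ comparison was repeated under other scalings, background corrections, filters, probe rules and fits, and without each mouse, and the fit was tested on simulated data. The planned normexp correction on mean spot signals used median spot signals, the column at hand. Some genes that these rules name are not reported here.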

Additional observations from a re-analysis of the deposited data

Results flagged for a closer look

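Npr1, the receptor for atrial natriuretic peptide, was called higher in the Sertoli-labelled fraction of control mice, by 1.12, and lower in that of knockout mice, by -0.76, with differences of -0.79, -0.6 and -0.88 in mice 120, 86 and 72. It stood out because each control mouse lay above 0 and each knockout mouse below. The test of the difference between genotypes did not pass (limma interaction adjusted p = 0.559), and the control call was lost with no replicate block, with the percentile over probes detected on all 6 arrays (0.70), after normexp correction (1.66) and without mouse 99 (0.85). Trem2, a receptor of macrophages, stood out in the same way, at 2.05 in control and -0.56 in knockout mice, with -0.17, -0.74 and -0.78 in mice 120, 86 and 72 (limma interaction adjusted p = 0.282), and its control call was lost after normexp correction (2.13).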

How the results depend on the processing

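The counts of 9310 higher and 8698 lower genes stayed within 1.5 times under most alternatives, with 59 genes called in opposite directions when a gene was read from the mean of its probes. The lower count was 3803 after normexp correction (3803 also at 2-fold or more), and 4596 (4011) over genes detected on all 6 arrays, which tests fewer genes. Without the mouse as a block (no replicate block) 9037 genes were higher and 8592 lower, and the fraction by genotype term called 2 genes in place of 0. Of 245 named genes, 230 were called and 191 kept sign and call under every alternative with a test. After normexp correction the sign turned for C1qa (0.25), Ptprc (0.25), Egr3 (0.43), Gfra1 (0.94), Il1b (0.21), Ocln (0.24) and Rpl3l (1.19), and Cldn11 was 0.13 in mouse 99. Uncalled genes that turned were, with the percentile over probes detected on all 6 arrays, Ctss (-0.40), Cyp11a1 (-0.22), Ldhb (-0.09), Trf (-0.33) and Trp73 (-0.30). On the median scale Cyp17a1 (0.02), Fos (0.31), Mki67 (0.44) and Pxn (0.28) turned. Ldha was -0.54 and Pxn 0.39 after quantile normalisation, and -0.52 and 0.39 in the authors' deposited table. Pxn was 1.06 after normexp correction and Trf -0.12 as a mean of probes. With 1 mouse left out the lowest and highest values were -0.21 and 0.29 for Ctss, -0.13 and 0.54 for Cyp11a1, -0.91 and 0.16 for Pxn, -0.18 and 0.38 for Trf, -0.18 and 0.63 for Trp73 and for the p53 family median, -0.78 and 0.15 for the epididymis median, and 0.58 and 0.67 for the X minus autosome difference. List medians that turned were Leydig (0.00, median scale), macrophage (0.25, normexp), tight junction (0.07, detected on all 6 arrays) and endothelial (-0.03, mouse 73). The epididymis median was 0.22 on the median scale, 1.16 after normexp, 0.16 after quantile normalisation, 0.09 in the authors' deposited table, 0.01 in mouse 99 and 0.08 in mouse 73. The p53 family median was -0.30 with the percentile over probes detected on all 6 arrays, -0.33 over genes detected on all 6 and -1.26 in mouse 73. The X minus autosome difference of 0.60 was 0.83 after quantile normalisation, 0.82 in the authors' deposited table, 0.65 after normexp, 0.18 with no filter, 1.32 over genes detected on all 6 arrays, 0.67 as a mean of probes and 0.64 in mouse 99. The cause of these changes was not tested. Named genes among the 3081 near background in the Sertoli-labelled fraction were given bounds in place of folds. The counts by fold, list medians and promoter groups rest on the fitted differences of all genes, those near background included.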

Other observations

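Gene families grouped by the start of their symbols, chosen after their values were seen, showed further blocks. All 8 measured Hoxc genes, transcription factors of body position, were called higher in the Sertoli-labelled fraction, with a median of 5.04, and 7 of 8 Hoxb genes, with a median of 4.44. All 15 measured clustered protocadherins of the Pcdhb group were higher, with a median of 4.40, although near copies among them can share a probe's signal. Of 11 annexins, which bind membranes in a calcium-dependent way, 9 were higher and 2 lower, with a median of 5.48.

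Of 26 Cfap genes, named for cilia and flagella, 24 were lower and 1 higher, with a median of -5.87, and of 12 tubulin ligase-like Ttll genes 11 were lower and 1 higher, with a median of -4.62. Of 8 Bbs genes, which serve the base of cilia, 7 were lower, with a median of -2.29. Of 20 kallikrein genes 14 were lower and 4 higher, with a median of -6.53. These genes too are near copies of each other. Among 49 Rpl genes of the large ribosomal subunit 46 were higher and 3 lower, with a median of 1.51. The lower genes were Rpl10l, Rpl39l and Rpl3l. Rpl39l differed by -11.42 ± 0.34, with 2 Sertoli-labelled arrays well above background (limma adjusted p = 1.08e-05), and Rpl3l by -1.15 ± 0.27 (limma adjusted p = 0.00916). The Rpl3l call was lost on the median scale (-0.48), after quantile normalisation (-0.33), in the authors' deposited table (-0.34), without mouse 73 (-1.05) and without mouse 74 (-1.16), and its sign turned after normexp correction (1.19).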
